A study of Homo sapiens with 8 samples.

Results

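The genes described are 10 transcriptional outputs and brakes of the ERK pathway, chosen by symbol: SPRY1, SPRY2, SPRY4, SPRED1, SPRED2, ETV1, ETV4, ETV5, PHLDA1 and CCND1. They are 10 of 58440 genes in the deposited count table, and all 10 were among the 17144 genes with enough counts to be tested. The study profiled polyA mRNA from HEK293, a human embryonic kidney cell line, in 8 samples that form 4 groups of 2. HTR1E-stable cells, which overexpress the serotonin receptor HTR1E, and Control cells of the same line were each collected with no ligand (Control treatment) or after serotonin. Samples were serum-starved for 3 h, and the treated ones then received 1 µM serotonin (5-HT) for 1 h. The promoter that drives the receptor, the number of clones behind the stable line and the origin of the 2 samples of a group from separate cultures are not given in the sources used here, so p-values measure the spread between these samples, which may be technical.

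Growth factor receptors, and some G protein-coupled receptors, signal through RAS, RAF and MEK to the kinase ERK. Active ERK induces genes that carry the signal on, such as the ETS-family transcription factors ETV1, ETV4 and ETV5 and the cell-cycle gene CCND1, and genes that damp it, such as the Sprouty (SPRY) and SPRED proteins. These genes are commonly read as a slower record of ERK activity than the immediate early genes. HTR1E couples to inhibitory G proteins, and ERK signalling downstream of this receptor is one of the questions that the study names.

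The column names of the count table give the treatment as a word, followed by a first letter with or without a trailing R. Neither the titles nor the other labels tie a letter to HTR1E-stable cells. The 4 columns that share one first letter held 1353 to 1836 counts of HTR1E each, and the 4 that share the other letter held 0, 0, 2 and 3. On that basis the sets are called HTR1E-high and HTR1E-low, with replicate 1 for the name without and replicate 2 for the name with the trailing R. HTR1E was among the genes fitted and called, but its difference named the sets and is not a result. A count of 0 allows up to 3 counts, or 0.331 to 1.15 CPM (counts scaled to the size of the library) across the 8 libraries. Levels that follow are normalised CPM, which use library sizes adjusted by the trimmed mean of M-values.

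Library totals ran from 2604885 to 9072278 counts. In the HTR1E-high libraries mitochondrial genes took 17.9 to 24.6% of the counts. Among the HTR1E-low libraries, no-ligand replicate 1 stood apart with 2604885 counts, 54.4% of them mitochondrial, and serotonin replicate 2 had 36.3% against 18.9 and 24.6% in the other two. The correlation of log CPM between replicates was 0.894 in the HTR1E-low no-ligand pair and 0.959 to 0.985 in the other 3 pairs. Results for the members that rest on these 2 libraries are given with and without them. The HEK293 markers NEFL, NEFM, INA, PAX2 and LHX1 had counts in all 8 libraries, and NEFM was as low as 1 count. Of markers of other cells, PTPRC was at 0 in all 8, while ALB had 2 to 6 counts, ESR1 and HBA1 0 to 9, and MYOD1 0 to 1. Between the sets, 1 of the 5 HEK293 markers was called, in 1 comparison. PAX2 was lower in the HTR1E-high set after serotonin (log2 -2.29 ± 0.56 SE, n = 2 against 2, adjusted p = 0.0422), with 21.6 normalised CPM in HTR1E-low serotonin replicate 2 against 5.98 in replicate 1, and -1.11 (adjusted p = 0.462) without that library. NEFM had the opposite sign and was not called, at 3.20 and 5.22 normalised CPM against 0.576 and 0.770 with no ligand (log2 2.51, adjusted p = 0.055) and 4.09 and 4.51 against 1.10 and 1.34 after serotonin (1.81, 0.0663). LHX1 was also above 0 (1.02 and 0.36), and NEFL (-0.45 and -0.37) and INA (0.21 and 0.28) were nearer 0 with no ligand than the others. The part of these differences in the members' results was not tested.

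Promoter sequences are shown for SPRED2 and ETV1, members whose no-ligand differences were large in the results that follow, and for SPRY2, which differed little. They put CCGGAA in context, an extended form of the GGAA core that ETS factors such as the ETV proteins bind. They come from the RefSeq promoter table (GRCh38.p14), which had entries for 7 of the 10 members (16 windows of 250 bases before a start). Capitals mark CCGGAA, sequences run 5′ to 3′ on the gene's strand, and bases inside an annotated exon were left out. GGAA without the leading CC was not marked, and the SPRED2 stretch holds it. The ETV1 window is chr7:13991426-13991675 (minus strand), the SPRED2 stretch chr2:65432638-65432849 (minus strand) and the SPRY2 window chr13:80341127-80341376 (minus strand). The start behind the SPRY2 window lies outside the counted SPRY2 gene (chr13:80335976-80340951). Bases after that start were not found in an annotated SPRY2 transcript.
ETV1: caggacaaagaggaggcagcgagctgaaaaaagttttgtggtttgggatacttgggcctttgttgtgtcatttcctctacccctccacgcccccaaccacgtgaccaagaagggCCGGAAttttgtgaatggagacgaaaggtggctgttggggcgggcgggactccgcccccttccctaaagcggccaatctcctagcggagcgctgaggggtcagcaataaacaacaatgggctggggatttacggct
SPRED2: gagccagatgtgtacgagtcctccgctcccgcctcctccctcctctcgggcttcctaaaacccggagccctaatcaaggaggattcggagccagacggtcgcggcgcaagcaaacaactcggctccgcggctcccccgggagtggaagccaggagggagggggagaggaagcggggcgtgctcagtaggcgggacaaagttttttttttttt
SPRY2: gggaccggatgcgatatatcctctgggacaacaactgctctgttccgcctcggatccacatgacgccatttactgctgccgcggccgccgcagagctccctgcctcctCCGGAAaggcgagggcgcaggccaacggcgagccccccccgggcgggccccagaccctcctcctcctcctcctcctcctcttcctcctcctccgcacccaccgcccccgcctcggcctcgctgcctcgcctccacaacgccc

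On either strand, CCGGAA was present in 14.5% of the 35116 promoter windows in the table. Among the members it was in 6 of 16 windows, which hold 5 distinct sites because a pair of ETV1 windows overlap, from 4 genes (ETV1, PHLDA1, SPRY1 and SPRY2), and in none of the windows of SPRY4, SPRED1 and SPRED2. The longer CCGGAAGT, which contains CCGGAA, was in 3.42% of all windows and 0 of 16. GGAA alone was not searched, so a window without CCGGAA can still hold an ETS core. The cAMP response element TGACGTCA was in 1.65% of all windows and 0 of 16, and the AP-1 sequence TGANTCA in 6.57% and 0 of 16. These are letter matches within 250 bases and show no binding.

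Per kilobase of exon, CCND1 (cyclin D1, which drives entry into the cell cycle) had the highest mean level of the 10 members over the 8 libraries, 9.05 ± 2.72 normalised CPM per kb (SD, n = 8). SPRED2 followed with 5.65 ± 3.24, SPRY2 with 3.47 ± 0.71 and ETV5 with 2.82 ± 1.13. ETV4, SPRY1, ETV1 and SPRY4 lay between 1.64 and 1.92, SPRED1 had 1.19 ± 0.25, and PHLDA1 had the lowest, 0.708 ± 0.246. Neighbours in this order differed by less than the larger of their SDs, except CCND1 above SPRED2 (by 3.40), SPRY4 above SPRED1 (0.449) and SPRED1 above PHLDA1 (0.484). SPRED2, ETV1, ETV4 and ETV5 varied by 3.20 to 4.22 times between their lowest and highest library, and SPRY1, SPRY2, SPRY4, SPRED1, PHLDA1 and CCND1 by 1.78 to 2.50 times. The counts behind these values ran from 6 (PHLDA1 in HTR1E-low no-ligand replicate 1) to 531 (CCND1 in HTR1E-low no-ligand replicate 2).

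**Figure D1:**
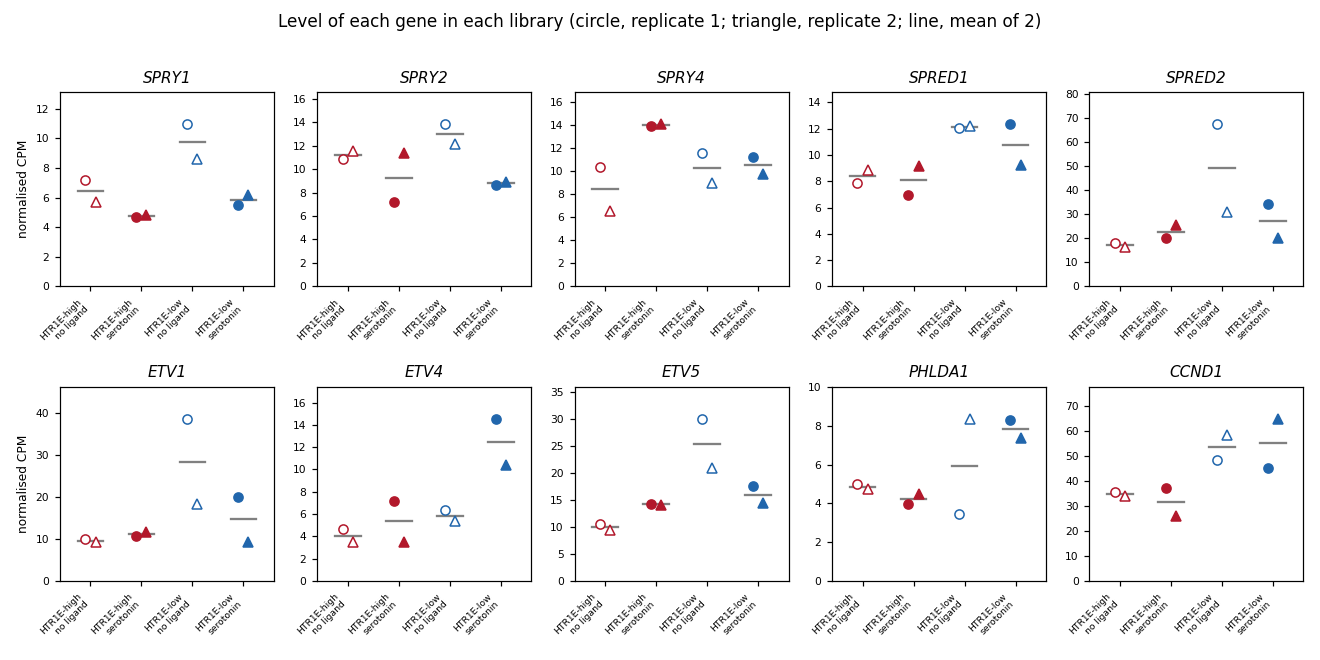
Normalised CPM (y axis, from 0) of the 10 genes in each library, by column set (x axis). Circles are replicate 1, triangles replicate 2, open symbols no ligand and filled symbols serotonin, with HTR1E-high in red and HTR1E-low in blue, and the grey line is the mean of 2; SPRED2, ETV1 and ETV5 are highest in HTR1E-low no-ligand replicate 1, at 67.4, 38.6 and 29.9.

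Without ligand, the first comparison asks how the members differ between receptor-bearing and receptor-poor cells. All 10 members had an estimate below 0 in the HTR1E-high set, and 1 of them, ETV5, passed the test, where 2.42% of all 17144 genes did (260 higher and 155 lower). The split over all genes depended on the tool, with 435 higher and 406 lower by DESeq2. Limma voom with quality weights gave 132 higher and 230 lower, and called SPRED2 and not ETV5. Its weights were 0.629 for HTR1E-low no-ligand replicate 1 and 0.308 for replicate 2. The median log2 fold change of the 10 members was -0.55, against 0.03 for all genes tested. In bulk RNA like this, fewer cells with a transcript and less of it per cell cannot be told apart. For 8 of the 10, both HTR1E-high libraries lay below both HTR1E-low ones, a pattern shown by 24.6% of all genes tested. In CPM without the trimmed-mean adjustment, SPRED2, ETV1 and ETV5 kept this pattern, and SPRY1, SPRY2, SPRED1, ETV4 and CCND1 overlapped. That adjustment had its lowest factor, 0.669, in HTR1E-low no-ligand replicate 1.

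ETV5, a PEA3-subfamily ETS factor (chr3:186046308-186110318, hg38, minus strand), had 10.46 and 9.35 normalised CPM in the HTR1E-high libraries and 29.9 and 20.8 in the HTR1E-low ones. The sets did not overlap, and both HTR1E-low values were above 20. The log2 fold change was -1.32 ± 0.29 (SE, n = 2 against 2, adjusted p = 0.0412), a 2.49-fold lower level. Without HTR1E-low no-ligand replicate 1 it was -1.11 with adjusted p = 0.0528, where 2.94% of all genes were called. Over all 16 alternatives it stayed between -1.55 and -1.09, with adjusted p from 0.00418 to 0.443, and 6 of them called it. With any 1 of the 7 libraries other than HTR1E-low no-ligand replicate 2 left out, it missed the threshold (adjusted p = 0.0528 to 0.443). Of the exon bases of ETV5, 2.83% are shared with DGKG on the same strand, and the other 9 members share none.

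ETV1, of the same subfamily (chr7:13891228-13991425, minus strand), had 9.93 and 9.26 normalised CPM in the HTR1E-high libraries and 38.6 and 18.3 in the HTR1E-low ones. Its log2 fold change of -1.50 ± 0.42 (SE) missed the threshold (adjusted p = 0.0933), and it was -0.97 without HTR1E-low no-ligand replicate 1. ETV4, the third member of the subfamily, had 4.70 and 3.45 against 6.33 and 5.39, and its log2 fold change was -0.49 ± 0.45. In normalised CPM the 3 ETV genes all lay lower in both HTR1E-high libraries, a pattern of 24.6% of all genes tested. The margin was smallest for ETV4, which overlapped without the trimmed-mean adjustment and had 11 counts in HTR1E-low no-ligand replicate 1.

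SPRED2, a membrane-anchored inhibitor of RAS-to-RAF signalling (chr2:65310851-65432637, minus strand), had 18.0 and 16.3 normalised CPM in the HTR1E-high libraries and 67.4 and 31.0 in the HTR1E-low ones. The log2 fold change was -1.47 ± 0.39 (adjusted p = 0.0756), and -0.90 without HTR1E-low no-ligand replicate 1. ETV1, SPRED2 and ETV5 therefore shared their highest value in the library with 54.4% mitochondrial counts. For all 3, the other HTR1E-low no-ligand library also lay above both HTR1E-high ones. All 3 estimates were smaller in size without the library with 54.4%. With both high-mitochondrial libraries left out, a setting chosen after seeing the data, which leaves 1 library in each HTR1E-low set and assumes that it varies like the others, 4 members were called lower: ETV5 at -1.09 (adjusted p = 0.00717), ETV1 at -0.94 (0.0263), SPRED2 at -0.87 (0.0229) and CCND1 at -0.77 (0.0403). In that fit 8.42% of all genes were called. DESeq2 on all 8 libraries called ETV5, ETV1 and SPRED2 lower, where it called 4.91% of all genes, and so did the fit without HTR1E-low no-ligand replicate 2, where 20.1% of all genes were called.

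**Figure D2:**
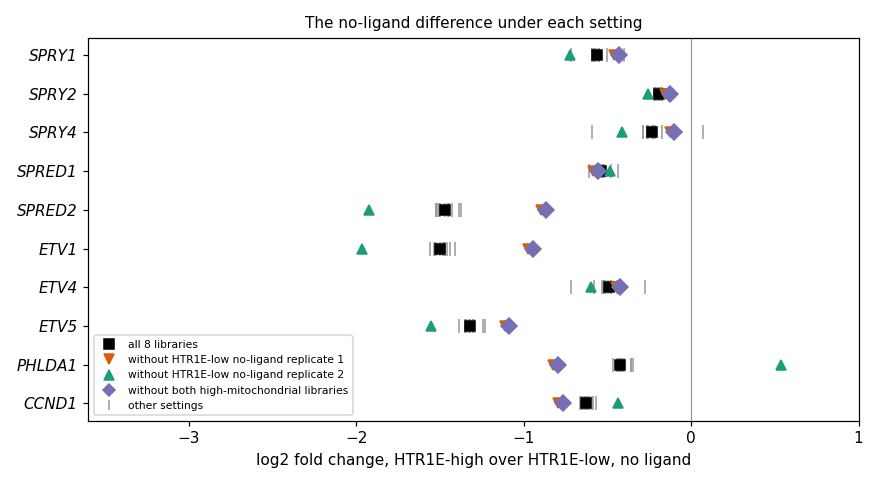
Log2 fold change of each gene between HTR1E-high and HTR1E-low libraries with no ligand (x axis) under the main and the alternative settings, 1 row per gene. The estimates for SPRED2 and ETV1 move from -1.47 and -1.50 (squares) to -0.90 and -0.97 without HTR1E-low no-ligand replicate 1 (downward triangles), and PHLDA1 moves to 0.54 without replicate 2 (upward triangle).

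The other 6 members had smaller estimates without ligand and none passed the test. The Sproutys antagonise receptor tyrosine kinase signalling. SPRY1 had 7.15 and 5.71 normalised CPM in the HTR1E-high set against 10.9 and 8.59 (log2 -0.56 ± 0.36 SE). SPRY2 had 10.9 and 11.5 against 13.8 and 12.1 (-0.19 ± 0.32), and SPRY4 had 10.4 and 6.50 against 11.5 and 8.92 (-0.23 ± 0.34). The sets were apart for SPRY1 and SPRY2, by a narrow margin for SPRY2, and overlapped for SPRY4. SPRED1, which with SPRED2 recruits neurofibromin to RAS, had 7.90 and 8.86 against 12.1 and 12.2 (-0.54 ± 0.32), with close replicates in both sets.
CCND1 had 35.4 and 34.1 against 48.4 and 58.4 (-0.63 ± 0.29, adjusted p = 0.268). PHLDA1, a pleckstrin-homology-domain protein, overlapped, with HTR1E-low values of 3.46 and 8.36 on either side of the HTR1E-high values of 5.02 and 4.73. Its estimate was -0.82 without HTR1E-low no-ligand replicate 1 and 0.54 without replicate 2. It rests on 6 counts in the shallow library.

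After serotonin, the same comparison of the 2 sets called 0 members, where 5.25% of all genes were called (400 higher and 500 lower). At an unadjusted p under 0.05 there were 2 members, ETV4 and CCND1, and DESeq2 also called 0. Estimates were below 0 for 8 members and above 0 for SPRY2 and SPRY4, with a median of -0.35 against 0.02 for all genes. Both HTR1E-high libraries lay below both HTR1E-low ones for 6 members, against 28.8% of all genes. In CPM without the trimmed-mean adjustment, SPRY1, SPRED1 and ETV5 overlapped, and PHLDA1, CCND1 and ETV4 kept this pattern. For ETV4 the nearest values there were 8.220 (HTR1E-high replicate 1) and 8.246 (HTR1E-low replicate 2). The adjustment factor of HTR1E-low serotonin replicate 2 was 0.796.

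ETV4 had 7.18 and 3.51 normalised CPM in the HTR1E-high serotonin libraries and 14.5 and 10.4 in the HTR1E-low ones. Its log2 fold change was -1.20 ± 0.41 (SE, n = 2 against 2, adjusted p = 0.106). CCND1 had 37.3 and 25.9 against 45.3 and 64.8 (-0.80 ± 0.29, adjusted p = 0.124). Both genes had sets that did not overlap. Without HTR1E-low no-ligand replicate 1, which enters this comparison through the shared estimate of spread, ETV4 (-1.22, adjusted p = 0.0293) and CCND1 (-0.82, adjusted p = 0.032) were called lower, where 18.1% of all genes were. Without HTR1E-low no-ligand replicate 2 the adjusted p-values were 0.0332 and 0.0381, and 18.2% of all genes were called.
Leaving out both high-mitochondrial libraries gave ETV4 -1.42 (adjusted p = 0.0109) and ETV1 -0.85 (0.0466), where 10.1% of all genes were called, and CCND1 -0.52 (0.194). Leaving out HTR1E-low serotonin replicate 2 alone called none of the 10, and 0.448% of all genes.

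PHLDA1 had 3.96 and 4.51 normalised CPM in the HTR1E-high serotonin libraries and 8.30 and 7.37 in the HTR1E-low ones (log2 -0.89 ± 0.42 SE, adjusted p = 0.218). SPRY4 went the other way, with 13.9 and 14.03 against 11.2 and 9.72 (0.41 ± 0.32), the 1 member with both HTR1E-high libraries above both HTR1E-low ones. ETV5, with 14.2 and 14.03 against 17.5 and 14.4, was closer between the sets than without ligand (-0.18 ± 0.28). SPRED2 (19.9 and 25.4 against 34.4 and 20.3) and ETV1 (10.7 and 11.7 against 20.03 and 9.38) overlapped, with the lower HTR1E-low value of each in the library with 36.3% mitochondrial counts.

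**Figure D3:**
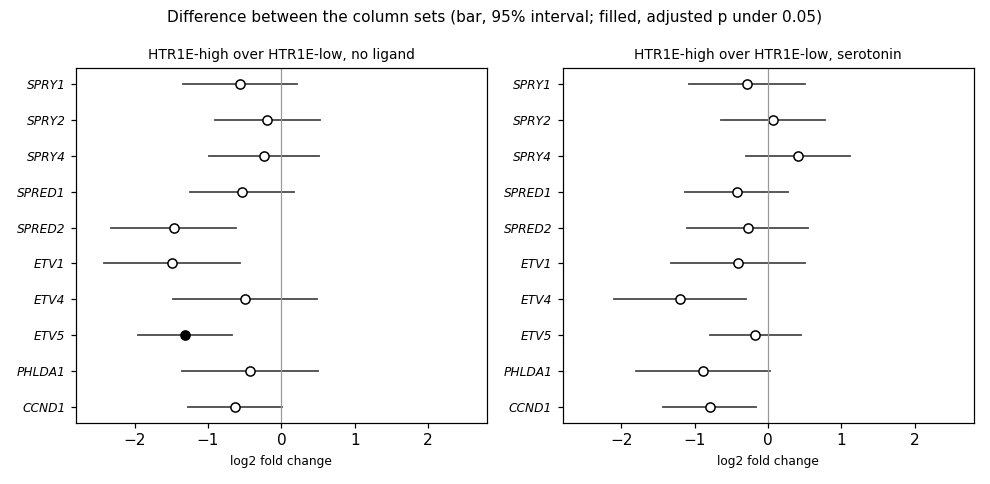
Log2 fold change of HTR1E-high over HTR1E-low libraries (x axis) for each of the 10 genes, with no ligand (left) and after serotonin (right); bars are 95% confidence intervals and filled points passed the test. All 10 estimates are below 0 on the left, where ETV5 at -1.32 is filled, and 8 are below 0 on the right, where none is filled.

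Within the HTR1E-high set, the effect of 1 h of serotonin on cells that carry the receptor was compared. No member was called, and neither was any other gene (0% of 17144; 62 genes had an unadjusted p under 0.05, and DESeq2 called 0). Estimates were above 0 for 5 members and below 0 for 5, with a median of 0.08 against -0.02 for all genes. The 2 libraries of each treatment stayed apart for 6 of the 10 members, against 27.0% of all genes. SPRY4, SPRED2, ETV1 and ETV5 were higher with serotonin and SPRY1 and PHLDA1 lower.

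SPRY4 had 10.4 and 6.50 normalised CPM with no ligand and 13.9 and 14.03 with serotonin. The serotonin libraries were both above the no-ligand ones, and the log2 fold change was 0.73 ± 0.32 (SE, 95% interval 0.02 to 1.44, adjusted p = 1). The no-ligand pair was the spread-out one: the estimate was 1.09 without HTR1E-high no-ligand replicate 1 and 0.42 without replicate 2.
Both serotonin libraries were also above both no-ligand ones for ETV5, SPRED2 and ETV1, by smaller amounts for the last. ETV5 had 10.46 and 9.35 with no ligand and 14.2 and 14.03 with serotonin (0.51 ± 0.29, interval -0.11 to 1.14). SPRED2 went from 18.0 and 16.3 to 19.9 and 25.4 (0.40 ± 0.38), and ETV1 from 9.93 and 9.26 to 10.7 and 11.7 (0.22 ± 0.42). Of the 2 members that lay lower with serotonin, SPRY1 was at 7.15 and 5.71 with no ligand and 4.71 and 4.84 with serotonin (-0.43 ± 0.35). PHLDA1 was at 5.02 and 4.73 and then 3.96 and 4.51 (-0.20 ± 0.42). The intervals of all 10 members' estimates reach no farther than -1.20 and 1.44.

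In the HTR1E-low set the serotonin comparison also called 0 members, where 0.0117% of all genes were called (2 genes). DESeq2 called 1599 genes there, and none of the 10. The sets stayed apart for 4 of the 10 members, against 54.0% of all genes: ETV4 was higher with serotonin, and SPRY1, SPRY2 and ETV5 were lower. The 4 HTR1E-low libraries include both of those with high mitochondrial shares, 1 in each treatment.

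ETV4 had 6.33 and 5.39 normalised CPM with no ligand and 14.5 and 10.4 with serotonin. Its log2 fold change was 1.12 ± 0.43 (SE, interval 0.17 to 2.08, adjusted p = 0.137), and 1.42 (adjusted p = 0.148) without both high-mitochondrial libraries. SPRY1 went from 10.9 and 8.59 to 5.50 and 6.20 (-0.70 ± 0.36), and SPRY2 from 13.8 and 12.1 to 8.67 and 8.88 (-0.54 ± 0.33).
The estimates for ETV1 (-0.87 ± 0.42) and SPRED2 (-0.79 ± 0.38) moved with both high-mitochondrial libraries. They were -0.30 and -0.18 without no-ligand replicate 1, -0.42 and -0.45 without serotonin replicate 2, and 0.12 and 0.14 without both. Without no-ligand replicate 2 they were instead -1.34 and -1.26, both called (adjusted p = 0.0178 and 0.00991), where 26.3% of all genes were called. CCND1 (0.03 ± 0.29), SPRY4 (0.08 ± 0.34) and SPRED1 (-0.17 ± 0.32) had the estimates nearest 0.

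The difference between the 2 serotonin responses, HTR1E-high minus HTR1E-low, was tested as an interaction. It called 0 members and 0% of all genes (2564 genes had an unadjusted p under 0.05, and DESeq2 called 70). ETV5 had the smallest p of the 10 members, with a difference of 1.14 ± 0.41 (log2, SE, interval 0.25 to 2.04, adjusted p = 0.302). SPRED2 had 1.19 ± 0.54 (adjusted p = 0.332) and ETV1 1.09 ± 0.59 (0.384). These 3 estimates share their no-ligand libraries, HTR1E-high and HTR1E-low, with the no-ligand comparison, which enters them with its sign turned. Without both high-mitochondrial libraries the differences were 0.77 for ETV5, 0.25 for SPRED2 and 0.09 for ETV1. Without HTR1E-low no-ligand replicate 2 they were 1.38, 1.64 and 1.55, and all 3 were called (adjusted p = 0.0323, 0.0142 and 0.0402), where 18.9% of all genes were. Averaged over both sets, serotonin gave 0 called members, where 0.00583% of all genes (1 gene) were called, and ETV4 had 0.77 ± 0.30 (adjusted p = 0.429) and SPRY1 -0.57 ± 0.25 (0.444).

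**Figure D4:**
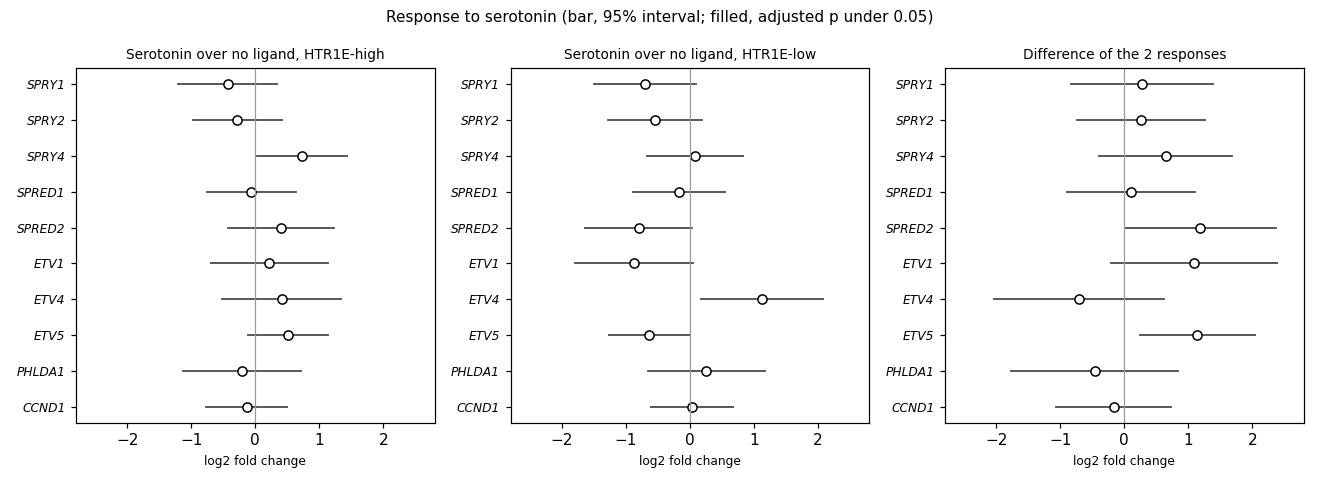
Log2 fold change of serotonin over no ligand (x axis) for each of the 10 genes in the HTR1E-high set (left) and the HTR1E-low set (middle), and the difference of the 2 responses (right); bars are 95% confidence intervals. No point is filled, so none passed the test; ETV4 in the middle panel is at 1.12 and ETV5 on the right at 1.14.

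Paralogues of the members and other genes commonly read as ERK output were looked at beside the members. The list held 22 genes, of which 21 were tested (SPRY3 was at 0 in all 8 libraries). Between the sets with no ligand, 0 of the 21 were called higher and 3 lower, and after serotonin 1 was called higher and 5 lower. Over all genes 2.42% and 5.25% were called in these comparisons, in either direction. Both comparisons of serotonin with no ligand, and the interaction, called 0 of the 21. The median over the list was -0.57 with no ligand and -0.30 after serotonin, against 0.03 and 0.02 for all genes.

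DUSP6, the phosphatase that removes activating phosphates from ERK, had 11.7 and 8.96 normalised CPM in the HTR1E-high no-ligand libraries and 52.4 and 45.8 in the HTR1E-low ones. With serotonin it had 11.1 and 7.69 against 57.3 and 54.4. All 4 HTR1E-high libraries were thus below 12 and all 4 HTR1E-low libraries above 45. The log2 fold changes were -2.24 ± 0.29 (SE, adjusted p = 0.00317) and -2.56 ± 0.29 (adjusted p = 0.00114), and DUSP6 was also called lower in both comparisons without the 2 high-mitochondrial libraries (-2.16 and -2.59).

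MYC, a growth-promoting transcription factor, was at 9.93 and 8.96 normalised CPM against 55.9 and 42.2 with no ligand (log2 -2.36 ± 0.31 SE, adjusted p = 0.00356). After serotonin it was at 12.1 and 7.35 against 26.6 and 24.5 (-1.38 ± 0.30, adjusted p = 0.0286). The MYC difference between the sets was thus called in both treatments. CCND2, the cyclin D paralogue of CCND1, was lower with no ligand (-1.95 ± 0.33, adjusted p = 0.0123), at 34.2 and 31.7 against 164.7 and 91.8 normalised CPM. It was -1.52 without HTR1E-low no-ligand replicate 1 and still called.
After serotonin, 3 more genes of the list were lower: VGF, a secreted neuropeptide precursor (-2.67 ± 0.43, adjusted p = 0.00823), the AP-1 subunit FOS (-1.85 ± 0.48, adjusted p = 0.0491) and the third SPRED gene, SPRED3 (-1.37 ± 0.30, adjusted p = 0.0286). IL17RD, a membrane inhibitor of FGF receptor signalling also called SEF, was higher (1.51 ± 0.31, adjusted p = 0.0233), at 20.3 and 22.4 against 8.55 and 6.37. Among these 6 genes called after serotonin, DUSP6 alone was still called without HTR1E-low serotonin replicate 2. The other 5 kept their signs there, with adjusted p from 0.0731 to 0.261.

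**Figure D5:**
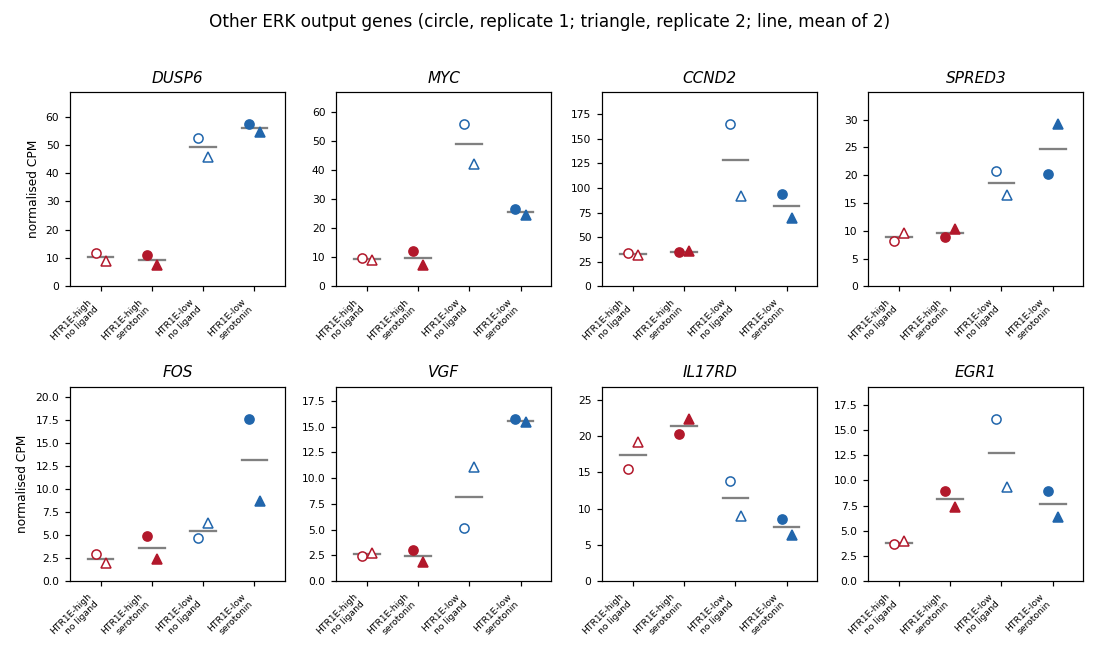
Normalised CPM (y axis, from 0) in each library by column set (x axis), for genes of the list of paralogues and other genes read as ERK output. Shown are the 7 called in a comparison of the sets, and EGR1, which was not called. Symbols are as in the plot of the 10 genes; DUSP6 lies at 7.69 to 11.7 in the HTR1E-high and 45.8 to 57.3 in the HTR1E-low libraries.

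The chain that leads to ERK was represented by 19 genes (RAS genes, RAF kinases, MEK, ERK and their regulators), all tested. With no ligand 0 were called. After serotonin 1 of the 19 was, a share near the 5.25% over all genes: the RAS exchange factor SOS2, higher in the HTR1E-high set (1.37 ± 0.35, adjusted p = 0.0468) at 26.1 and 32.7 against 12.8 and 9.88 normalised CPM. Without HTR1E-low serotonin replicate 2 SOS2 was at 1.19 and not called (adjusted p = 0.378). The serotonin comparisons and the interaction called 0. Of the 19 estimates for serotonin in the HTR1E-low set 14 were below 0, with a median of -0.73 against 0.01 for all genes. These estimates include HTR1E-low no-ligand replicate 1, where genes of the list departed from replicate 2 in either direction. NF1 was at 308.7 normalised CPM in replicate 1 and 125.6 in replicate 2, and HRAS at 7.49 and 40.8. The median was not computed without the high-mitochondrial libraries.
Of 7 regulators of ETV transcription and turnover, among them the repressor CIC and the ubiquitin ligase COP1, 0 were called in any comparison. With no ligand all 7 estimates were below 0 (median -0.65), and the coactivators EP300 and CREBBP were at 351.3 and 230.4 normalised CPM in HTR1E-low no-ligand replicate 1 against 122.6 and 82.2 in replicate 2. Of 8 cyclin D1 partners and inhibitors, such as CDK4 and CDK6, 0 were called in any comparison, and their median with no ligand was 0.00.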

How the data were processed

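Messenger RNA of 8 HEK293 samples was sequenced from stranded polyA libraries, per the labels' protocols. The authors deposited raw counts of read pairs per gene, made with featureCounts 2.0.1 (reverse-stranded, GENCODE release 28), per the file headers. The submitters' processing notes name cutadapt 3.4, FastQC 0.11.9, Bowtie2, STAR 2.7.8a, SAMtools 1.12 and hg38. Samples carry the labels' treatment. The 4 sets of 2 columns were formed from treatment word and first letter, and called HTR1E-high or HTR1E-low from the HTR1E counts.

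Counts were filtered with filterByExpr (minimum count 10), scaled by TMM and tested with edgeR 4.0.16 (R 4.3.3) in a quasi-likelihood fit of 4 set means with 4 residual degrees of freedom. P-values were adjusted by Benjamini-Hochberg over all 17144 genes, with a threshold of 0.05. SE is the log2 fold change divided by the root of F. DESeq2 1.42.0, limma 3.58.1, other filters and scalings, replicate blocks and left-out columns were alternatives. Members, gene lists and settings were chosen with earlier results of these data known. Genes named beyond the members were the 3 with the largest change among those called in each list and comparison; PAX2, EGR1, EP300, CREBBP, SPRED3, MYC after serotonin and IL17RD were named after their values were seen. Floors for low counts cover counting error only. Confidence intervals were built from the SE of the quasi-likelihood fit, so they also include the spread between these samples, which may be technical.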

Additional observations from a re-analysis of the deposited data

Results flagged for a closer look

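In each treatment, the 4 libraries were checked for a value far from the other 3, for the 10 genes, the library total and the mitochondrial share, 24 groups of 4 in all. Chance flags about 1 in 20 such groups, and 3 were found. HTR1E-low no-ligand replicate 1 was far below the other no-ligand libraries in total counts (2604885, a gap of 0.858 of the range) and far above them in mitochondrial share (54.37%, 0.973 of the range). With serotonin, ETV5 in HTR1E-low replicate 1 was above the other 3 libraries, at 17.46 normalised CPM (0.891 of the range). No interaction among the 10 members passed the test.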

How the results depend on the processing

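No call changed sign under any of the alternatives, 13 planned and 4 added after the data were seen (both high-mitochondrial libraries left out, an additive replicate block, mitochondrial genes left out, and limma voom with quality weights). Estimates that were not called changed sign in 2, 3, 4, 11, 7 and 13 of 160 to 170 values for the 6 comparisons in the order used here. The number of members called with no ligand was 1 and became 3 with DESeq2 and without a filter, 0 with only the columns compared and with the additive replicate block, 4 without both high-mitochondrial libraries, and 0 to 3 with 1 library left out. After serotonin it was 0 and became 1 with only the columns compared (ETV4), 2 without both high-mitochondrial libraries and 0 to 2 with 1 left out. With 1 left out it was 0 to 2 for serotonin in the HTR1E-low set and 0 to 3 for the interaction.

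Counts of genes called between the sets with no ligand were 415, then 841 (DESeq2), 1117 (no filter), 15 (only the columns compared), 1542 (without both high-mitochondrial libraries), 268 (additive replicate block), 362 (limma) and 60 to 3693 (1 library left out). After serotonin they were 900, then 1515, 1985, 2312, 1850, 480 and 83 to 3347, and 1694 with limma. For serotonin in the HTR1E-low set they were 2, then 1599 (DESeq2), 1830 (no filter), 2218 (nested replicate block), 9 (only the columns compared), 84 (without both high-mitochondrial libraries), 0 (limma) and 0 to 4846. For the interaction they were 0, then 70 (DESeq2), 570 (no filter), 250 (nested replicate block), 7 (without both high-mitochondrial libraries) and 0 to 3482. For serotonin averaged over the sets they were 1, then 11, 227, 27, 7, 0 with the additive replicate block and 0 to 1650. The cause of these shifts was not tested. Fits with 1 library left out test more genes, and a lone library is assumed to vary like the other sets.

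Deviations of same-numbered replicates correlated across genes at 0.00 (HTR1E-high) and 0.15 (HTR1E-low) between the treatments and at -0.46 to 0.09 for the other pairs of sets, so the numbers were not taken to pair the samples. The nested replicate block, fitted for the serotonin comparisons, called 0 members in each. The members' counts ran from 6 to 531, with 2 libraries a set, which bounds the precision of each value.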
